A study of Mus musculus with 9 samples.

Results

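The 9 genes described here carry the Notch signal from the cell surface to the nucleus: the receptors Notch1, Notch2 and Notch3, the ligand Jag2, the transcription complex genes Rbpj and Maml1, and the target genes Hes1, Dtx1 and Nrarp. They were listed by name as Notch pathway genes, with no measured value in the rule, and all 9 were found among the 53380 gene rows of the deposited tables. The 9 RNA-seq libraries came from a mouse T-ALL line (acute lymphoblastic leukemia of the T lineage) that grew out of tumors of EμSRα-tTA/tet-O-MYC mice on the FVB/N background. All 3 groups carry the same human MYC transgene, which a tetracycline transactivator under the EμSRα promoter keeps on until doxycycline is added. The study sequenced RNA at different MYC levels to find glycosylation genes that follow MYC. Mock treatment gave the group MYC on, doxycycline at 20 pg/mL gave MYC intermediate and doxycycline at 500 pg/mL gave MYC off, each with 3 libraries harvested at 48 hours. The labels do not say that the libraries of a group came from separate cultures, so every p-value reflects the spread among these libraries alone, which may be technical, and the cells stand for 1 tumor model in culture.

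Notch receptors are single-pass proteins that are cleaved after a ligand on a neighboring cell binds them, first by an ADAM protease and then by γ-secretase. The freed intracellular domain enters the nucleus and joins the DNA-binding protein RBPJ and a Mastermind coactivator, and this complex turns on targets such as Hes1. In the thymus Notch1 drives commitment to the T lineage, and activating Notch1 mutations are common in T-ALL, where Myc itself is one of the genes that Notch turns on.

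Totals were 18705516 to 39678799 counts per library, and a gene with no reads in a library could still be present at up to 0.0756 to 0.16 CPM, the level that 3 counts would give (CPM are counts scaled to a library total of 1000000). These limits cover counting error only, since the libraries carry no molecular identifiers. The transgene, listed as hMYC, followed the labels. It had 1340, 1190 and 1250 CPM in MYC on libraries, 427.8, 414.1 and 382.9 in MYC intermediate libraries, then 4.083, 4.01 and 3.262 in MYC off libraries. These levels put MYC intermediate at 32.4% and MYC off at 0.3% of the MYC on mean. All 11 T cell markers had counts, summing to 4923 to 5067 CPM in MYC on, 7886 to 8116 in MYC intermediate and 9941 to 10480 in MYC off. Of other lineages, Ms4a1, Pax5, Lyz2, Cd14, Adgre1, Cdh5 and Pf4 had 0 counts in all 9 libraries. In the B cell list, Cd79a had 48 counts over the 9 libraries and Ebf1 had 2. In the erythroid and platelet list, Itga2b had 17, Klf1 had 8 and Hbb-bs had 2. The myeloid list (2 of 5 genes with counts) summed to 40.54 to 43.64 CPM in MYC off and 26.52 to 30.9 CPM in MYC on, but its 2 detected genes went opposite ways. Itgam averaged 22.12 CPM in MYC off and 3.88 CPM in MYC on, while Csf1r averaged 19.55 CPM in MYC off and 24.76 CPM in MYC on. The stromal, endothelial and epithelial list (5 of 6 with counts) summed to 209 to 227.8 CPM in MYC off and 89.4 to 94.35 CPM in MYC on. Nearly all of that sum was Pecam1, with 207.6 CPM in MYC off and 83.83 CPM in MYC on, while Pdgfrb averaged 8.509 CPM in MYC off and 8.095 CPM in MYC on. The part of these lists in the results below was not tested. In bulk RNA, fewer cells of a type and less RNA per cell cannot be told apart.

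The transcription complex and 2 receptors were present at low to moderate levels, while the classical target genes had few or no counts. Levels of different genes are compared in TPM, which are scaled to the same total after each count is divided by the length of the gene model. Over the 9 libraries, mean levels were 9.345 TPM for Maml1, 7.738 TPM for Rbpj, 4.65 TPM for Notch2, 2.607 TPM for Jag2, 1.346 TPM for Notch1 and 0.3848 TPM for Nrarp, with Notch3 at 0.006324 TPM. Hes1 and Dtx1 were at 0. All of them lay low in the transcriptome: the median of the 10953 tested protein-coding genes was 28.18 TPM, and 27.1% of those genes had a lower mean than Maml1, 24.7% a lower mean than Rbpj, 18.8% a lower mean than Notch2, 14% a lower mean than Jag2 and 9.08% a lower mean than Notch1. The levels of Rbpj leave out the reads listed under its near-identical pseudogene Rbpj-ps3, so its rank and its order against Maml1 are uncertain. The order of neighbors, on the values as listed, was not the same in every group. In MYC off, Maml1 at 11.81 ± 0.943 TPM stood above Rbpj at 8.0 ± 0.595 TPM, and Notch1 at 1.877 ± 0.172 TPM and Jag2 at 1.546 ± 0.62 TPM did not differ beyond their spread (SD, n = 3). In MYC on, differences within the spread were found for Rbpj at 7.423 ± 0.29 TPM and Maml1 at 7.276 ± 0.629 TPM, and for Jag2 at 5.124 ± 1.2 TPM and Notch2 at 4.478 ± 0.841 TPM (SD, n = 3).

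**Figure D1:**
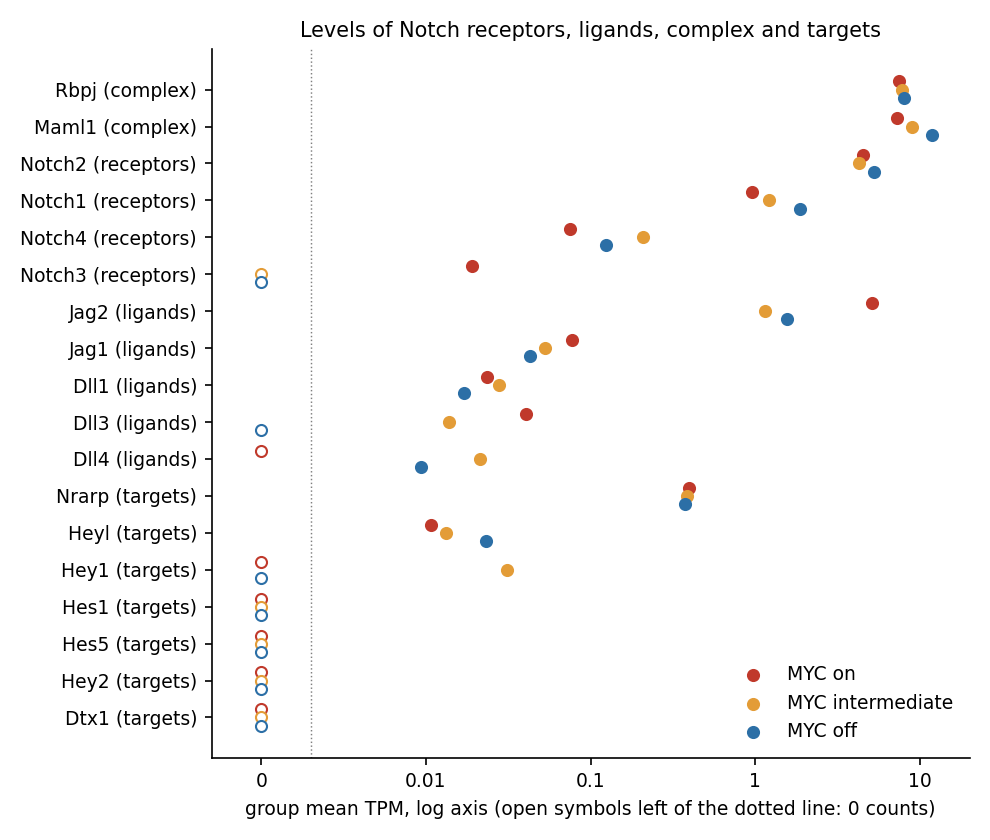
Group mean TPM on a log axis for the receptors, ligands, transcription complex and targets of the Notch pathway, with 1 point per gene and MYC level and open symbols left of the dotted line for groups with 0 counts. Rbpj, Maml1, Notch2, Notch1 and Jag2 lay near or above 1 TPM, whereas Hes1, Hes5, Hey2 and Dtx1 had 0 counts in all 9 libraries.

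Of the 9 genes, 5 passed the filter on low counts (Notch1, Notch2, Jag2, Rbpj and Maml1) and were tested together with all other genes, 14098 in all, by the quasi-likelihood test of edgeR with Benjamini-Hochberg adjustment. A gene was called at an adjusted p under 0.01. In MYC off against MYC on, 2 of the 5 were higher and 1 was lower, where 27.5% of all tested genes were higher and 27.4% lower (54.9% in either direction). The libraries of MYC off and MYC on did not overlap for these 3 genes, as for 70% of all tested genes. In MYC intermediate against MYC on, 1 of the 5 was lower and 0 were higher, against 17.2% and 17.4% of all tested genes (34.6% in either direction). At an unadjusted p under 0.05 edgeR put 1 of the 5 higher, and DESeq2 called 0 higher. In MYC off against MYC intermediate 0 of the 5 were called in either direction by edgeR, where 9.95% of all tested genes were higher and 14.7% lower (24.7% in either direction). There 2 were higher and 0 lower at an unadjusted p under 0.05, and DESeq2 called 1 higher and 0 lower. The median log2 fold change of the 5 was 0.19 for MYC off over MYC on and 0.11 for MYC intermediate over MYC on, beside medians of 0.03 and 0.0079 for all tested genes. For MYC off over MYC intermediate it was 0.33, beside 0.007 for all tested genes. With so large a part of the transcriptome called, the share of these genes that was called did not set them apart.

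**Figure D2:**
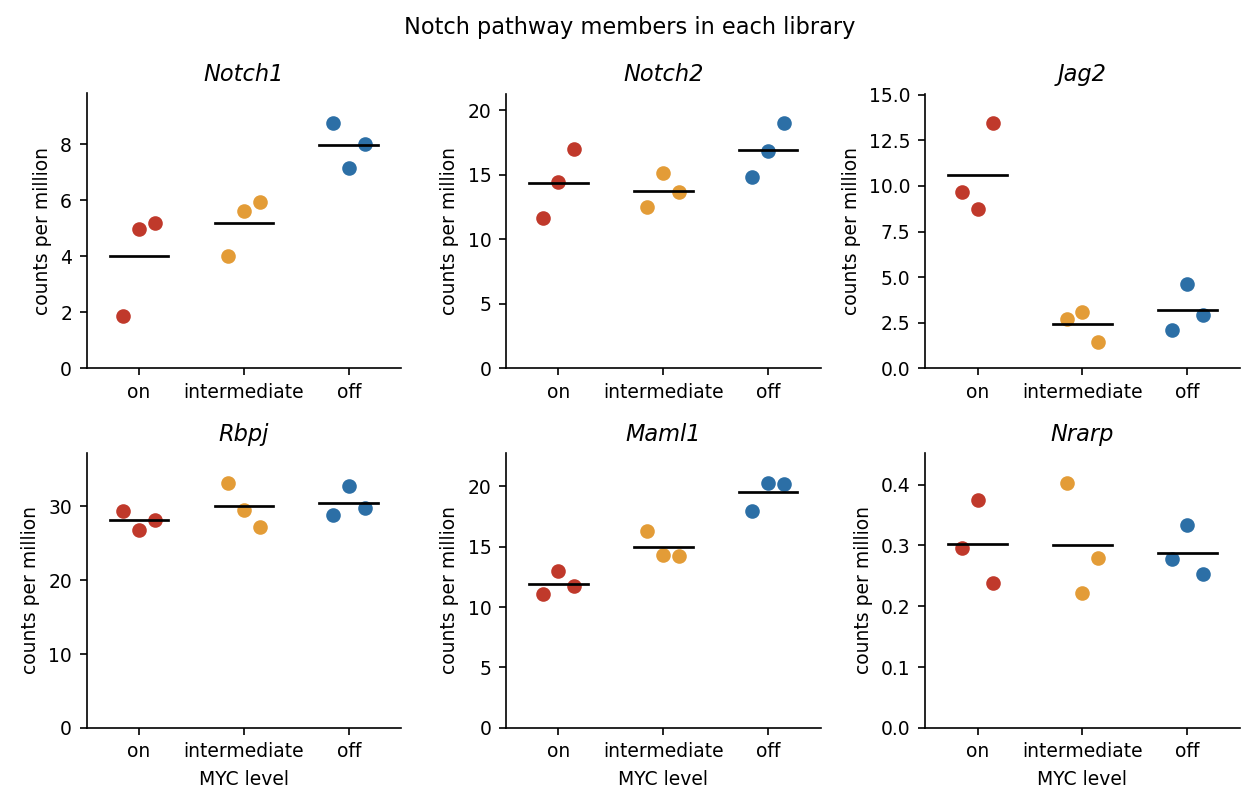
CPM in each library for the 6 genes with reads in every library, from MYC on through MYC intermediate to MYC off, with points for libraries and a line for the group mean (each vertical axis starts at 0 and has its own scale). Notch1 and Maml1 lay above the MYC on libraries in all 3 MYC off libraries, and Jag2 lay below them in both doxycycline groups.

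Among the receptors, Notch1, the receptor that T-ALL most often activates (chr2:26457903-26516663, minus strand, mm10), was higher in MYC off. It had 1.87, 4.972 and 5.179 CPM in MYC on libraries, 4.003, 5.627 and 5.955 in MYC intermediate libraries, then 8.77, 7.166 and 8.012 in MYC off libraries. Every MYC off library lay above every library of the other groups, and the first MYC on library, with 38 counts for Notch1, lay well below the other two. The mean of MYC off was 1.992 times that of MYC on, with a log2 fold change of 0.95 ± 0.251 SE (edgeR adjusted p = 0.00376). The call was lost without the first MYC off library (0.85, adjusted p = 0.0153) and with DESeq2 (0.95, adjusted p = 0.0185). Without the low MYC on library the log2 fold change was 0.63 (adjusted p = 0.00768). Neither MYC intermediate over MYC on (0.36 ± 0.26 SE, edgeR adjusted p = 0.282) nor MYC off over MYC intermediate (0.59 ± 0.239 SE, edgeR adjusted p = 0.0669) was called, although without the low MYC on library the step of MYC off over MYC intermediate was called (0.58, adjusted p = 0.0089). Notch1 shares 1068 exon bases with 0610009E02Rik and 414 with Gm13568, both on the other strand. Because the library kit does not mark strand, reads of these stretches cannot be told apart. The 2 transcripts had 68 and 8 counts in all 9 libraries, beside 1529 for Notch1. How the counting treated reads of shared stretches is not given in the sources used here, and their part in the Notch1 values was not tested.

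Notch2, a receptor best known for its role in marginal zone B cells (chr3:98013527-98150361, plus strand), was the most abundant receptor per length. Its levels were 11.61, 14.43 and 16.97 CPM in MYC on, 12.51, 15.11 and 13.62 in MYC intermediate, then 14.79, 16.82 and 19 in MYC off. The 3 groups overlapped. The log2 fold change was 0.19 ± 0.13 SE for MYC off over MYC on (edgeR adjusted p = 0.216), −0.06 ± 0.131 SE for MYC intermediate over MYC on (adjusted p = 0.74) and 0.25 ± 0.128 SE for MYC off over MYC intermediate (adjusted p = 0.142).

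Notch3 (chr17:32120820-32166852, minus strand), a receptor found in early thymocytes and in vascular smooth muscle, had 4 counts in all, every one of them in the third MYC on library (0.136 CPM), and 0 in the other 8 libraries. No difference was detectable at this depth. Notch4, the remaining mammalian receptor, best known from endothelium, averaged 0.1785 CPM in MYC on, 0.5101 in MYC intermediate and 0.3007 in MYC off, and was called in none of these comparisons (edgeR adjusted p = 0.314 for MYC off over MYC on and 0.0308 for MYC intermediate over MYC on).

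The receptor pool was mostly Notch2 at every MYC level. Of the summed TPM of the 4 receptor genes, Notch2 took 81.97% ± 5.84 in MYC on, 74.92% ± 1.68 in MYC intermediate, and 72.19% ± 4.16 in MYC off (SD, n = 3 each). Notch1 took 16.5% ± 5.03, ranging from 10.82% to 20.37%, in MYC on, 21.33% ± 2.85 in MYC intermediate, and 26.06% ± 3.66, ranging from 23.92% to 30.28%, in MYC off (SD, n = 3 each). The Notch1 share in all 3 MYC off libraries was above that in all 3 MYC on libraries. The exact two-sided permutation test of 3 against 3 libraries gave p = 0.1, the smallest it can give, for MYC off against MYC on, 0.2 for MYC intermediate against MYC on and 0.3 for MYC off against MYC intermediate.

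Jag2, a transmembrane ligand that Notch receptors bind on neighboring cells (chr12:112907819-112929776, minus strand), was lower in both doxycycline groups. It had 9.644, 8.714 and 13.46 CPM in MYC on, 2.7, 3.11 and 1.463 in MYC intermediate, then 2.117, 4.604 and 2.913 in MYC off. All 6 libraries with doxycycline lay below all 3 MYC on libraries, and the MYC off and MYC intermediate libraries overlapped. The mean was 0.3028 of the MYC on mean in MYC off and 0.2286 of it in MYC intermediate. The log2 fold change was −1.80 ± 0.264 SE for MYC off over MYC on (edgeR adjusted p = 2.1e-05) and −2.13 ± 0.274 SE for MYC intermediate over MYC on (edgeR adjusted p = 1.28e-05). Both calls held with each library left out in turn, between −2.12 and −1.57 for MYC off and between −2.34 and −1.87 for MYC intermediate. MYC off over MYC intermediate gave 0.33 ± 0.293 SE (edgeR adjusted p = 0.41). No stretch of 50 bases of its transcripts occurred in another gene.

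On a scale from 0 at MYC on to 1 at MYC off, in log2 fold change, MYC intermediate stood at 1.18 for Jag2, 0.502 for Maml1 and 0.381 for Notch1. Leaving out single libraries moved these positions between 1 and 1.35 for Jag2, between 0.392 and 0.564 for Maml1, and between 0.0653 (without the low MYC on library) and 0.544 for Notch1. Set against the average of the MYC off and MYC on groups, Jag2 in MYC intermediate was at −1.23 ± 0.253 SE (edgeR adjusted p = 0.0107). That lay just outside the threshold in this contrast, in which 1.89% of all tested genes were called, 1.7% higher and 0.184% lower. None of the 5 genes was called there by edgeR, 0 being higher and 1 lower at an unadjusted p under 0.05, and DESeq2 called Jag2 (−1.25, adjusted p = 0.00801). With the replicate number as a block, edgeR also called Jag2 (−1.23, adjusted p = 0.00576). Maml1 lay at 0.0012 ± 0.0824 SE from that mean (edgeR adjusted p = 0.996).

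**Figure D3:**
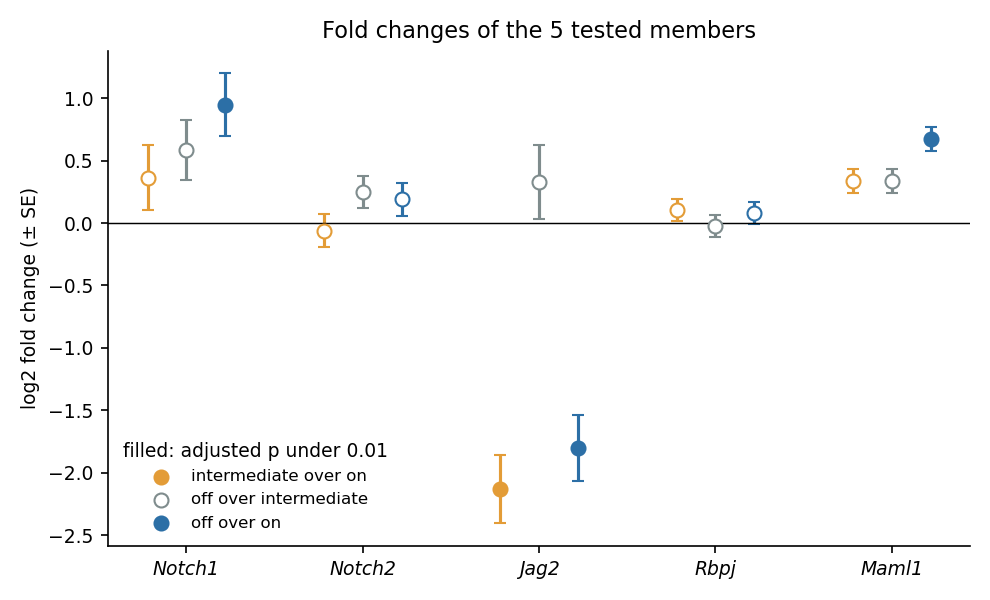
Log2 fold changes with standard errors for the 5 tested genes in the 3 comparisons, filled where the edgeR adjusted p was under 0.01. Jag2 stood at −1.80 for MYC off and at −2.13 for MYC intermediate, both over MYC on, while Maml1 was at 0.67 for MYC off over MYC on.

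The other ligand genes were close to or at 0. Jag1 had 25 counts over the 9 libraries, Dll1 had 7, Dll3 and Dll4 had 3 each and Dlk1 had 0, which over all 9 libraries allows up to 0.0118 CPM. Of the 7 other receptor and ligand genes listed, Notch4 alone passed the filter on low counts.

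In the transcription complex, Maml1 rose and Rbpj did not pass the test. Maml1, a Mastermind coactivator that bridges the Notch intracellular domain to histone acetyltransferases (chr11:50255634-50292311, minus strand), had 11.12, 12.99 and 11.72 CPM in MYC on, 16.26, 14.33 and 14.21 in MYC intermediate, then 17.99, 20.31 and 20.17 in MYC off. The libraries of no pair of groups overlapped, and the group means stood in the order of the doxycycline dose. Maml1 shares 135 exon bases with Gm26542 on the other strand, which had 190 counts in all 9 libraries, beside 4030 for Maml1. The part of reads from that stretch in the Maml1 values was not tested. The libraries of MYC intermediate and MYC on did not overlap for Jag2 and Maml1 among the 5 tested genes, as for 53.5% of all tested genes, and those of MYC off and MYC intermediate did not overlap for Notch1 and Maml1, as for 47.6%. The log2 fold change of Maml1 was 0.67 ± 0.0973 SE for MYC off over MYC on (edgeR adjusted p = 1.86e-05), 0.34 ± 0.0987 SE for MYC intermediate over MYC on (adjusted p = 0.0109) and 0.34 ± 0.094 SE for MYC off over MYC intermediate (adjusted p = 0.0112). Both smaller steps lay close to the threshold. MYC intermediate over MYC on was called without the third MYC intermediate library (adjusted p = 0.00955) or the first MYC off library (adjusted p = 0.0095). MYC off over MYC intermediate was called with DESeq2 (adjusted p = 0.00687) or without the first MYC intermediate library (edgeR adjusted p = 0.00403). By edgeR it was also called with a filter of 1 CPM in 3 libraries (adjusted p = 0.00919), RLE size factors (0.00944), library size alone (0.00586) and upper quartile scaling (0.00336). It was not called with no filter (0.0268), thinned counts (0.0254), the replicate block (0.0125) or only the 6 libraries compared (0.0209). Maml2 and Maml3, relatives of Maml1, had 137 and 12 counts in all. Maml2 averaged 0.6238 CPM in MYC off and 0.3023 CPM in MYC on (edgeR adjusted p = 0.044).

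Rbpj, the DNA-binding protein of the complex, which holds targets repressed when no Notch is present (chr5:53466152-53657362, plus strand), had 29.37, 26.84 and 28.14 CPM in MYC on, 33.24, 29.54 and 27.23 in MYC intermediate, then 28.81, 32.75 and 29.83 in MYC off. The groups overlapped. The log2 fold change was 0.08 ± 0.0902 SE for MYC off over MYC on (edgeR adjusted p = 0.464), 0.11 ± 0.0906 SE for MYC intermediate over MYC on (adjusted p = 0.37) and −0.03 ± 0.0889 SE for MYC off over MYC intermediate (adjusted p = 0.841).

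The Rbpj value carries an uncertainty, because a processed pseudogene, Rbpj-ps3 (chr6:46529354-46530794, minus strand), copies most of its coding sequence. Over 1441 aligned bases with 0 gaps, 1437 (99.7%) were identical to the 1578-base coding sequence, and 81% of the 50-base stretches of that sequence occur whole in the pseudogene. To show how few bases separate the copies, coding bases 1030 to 1089 of Rbpj are printed with the matching bases of Rbpj-ps3, in coding orientation from the mm10 annotation, with the 2 differing bases in capitals.
Rbpj: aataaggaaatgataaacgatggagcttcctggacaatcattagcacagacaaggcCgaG
Rbpj-ps3: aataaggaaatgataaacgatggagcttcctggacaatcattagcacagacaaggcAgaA
Rbpj-ps3 was listed with 24.16, 25.61 and 23.85 CPM in MYC on, 19.77, 23.77 and 27.51 in MYC intermediate, then 22.88, 24.91 and 24.51 in MYC off. It thus held 44.7% of the counts of both loci, and how the counting treated reads that match both is not given in the sources used here. The sum of both loci gave a log2 fold change of 0.016 ± 0.063 SE for MYC off over MYC on (edgeR adjusted p = 0.836) and was called in none of the 3 comparisons.

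The target genes had few or no counts at any MYC level. Hes1, a transcriptional repressor and the best-known direct Notch target (chr16:30064384-30067796, plus strand), and Dtx1, an E3 ubiquitin ligase that acts on Notch itself (chr5:120680202-120711927, minus strand), had 0 counts in each of the 9 libraries. Over all 254517689 counts this allows up to 0.0118 CPM for each. Among 21865 protein-coding genes, 7188 (32.9%) also had 0 counts. No stretch of 50 bases of Hes1 and 0.0952% of those of Dtx1 occur in another gene. T cell markers were abundant in the same libraries. The annotation release used for counting is not given in the sources used here, and the cause of these 0 counts was not tested.

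Nrarp, an ankyrin repeat protein that binds the Notch complex and promotes loss of the intracellular domain (chr2:25180758-25183339, plus strand), had 75 counts in all. Its levels were 0.295, 0.374 and 0.239 CPM in MYC on, 0.403, 0.222 and 0.279 in MYC intermediate, then 0.277, 0.334 and 0.253 in MYC off. The groups overlapped, with exact two-sided permutation p = 0.8 for MYC off against MYC on, 1 for MYC intermediate against MYC on and 0.9 for MYC off against MYC intermediate. In a fit with no filter, edgeR gave an adjusted p of 0.946 for MYC off over MYC on. Even this low level is uncertain, since 2051 of its exon bases (79.4%) also belong to the antisense gene Gm38287, listed with 79 counts. Other genes of the Hes and Hey family, the repressors that Notch most widely turns on, were as low: Hes5 and Hey2 had 0 counts, Hey1 had 3 and Heyl had 7 over the 9 libraries. Mouse Myc was listed with 0 counts in every library, but whether the reference used for counting was masked at that gene is not given in the sources used here, so this 0 cannot be read as absence of its RNA.

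The bases in front of the start site were read for the 2 members that were higher in MYC off, Notch1 and Maml1, to look for the E-box that MYC binds with its partner MAX and for the core motif that RBPJ binds. The stretches are from RefSeq on GRCm38.p6, in the direction of the gene, and end before the first annotated exon base of their window. They lie at chr2:26503825-26504072 for Notch1 and chr11:50292337-50292586 for Maml1, and hold no capitals because neither motif was found. The Notch1 stretch lies within the annotated span of the gene, since longer models start farther upstream.
Notch1: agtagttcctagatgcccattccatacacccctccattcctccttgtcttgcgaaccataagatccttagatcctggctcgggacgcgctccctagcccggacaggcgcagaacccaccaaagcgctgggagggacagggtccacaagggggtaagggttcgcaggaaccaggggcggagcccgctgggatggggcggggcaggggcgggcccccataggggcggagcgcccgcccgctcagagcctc
Maml1: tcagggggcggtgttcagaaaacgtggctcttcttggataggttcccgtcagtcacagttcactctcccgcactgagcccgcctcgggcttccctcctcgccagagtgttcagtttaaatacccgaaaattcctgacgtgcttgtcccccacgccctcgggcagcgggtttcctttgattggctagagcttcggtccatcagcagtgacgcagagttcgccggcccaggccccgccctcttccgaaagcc
The motifs were the E-box CACGTG, the same on both strands, and the RBPJ core GTGGGAA, read on the other strand as TTCCCAC, whose matches may overlap, since the E-box ends in the 3 letters that open the core. In windows of 250 bases before to 50 after the start, 7.15% of 32851 mouse promoters held the E-box and 6.38% the RBPJ core. Of the 8 members with an entry, Nrarp alone held an E-box, starting 108 bases before its start site, and none held the RBPJ core. Hes1 had no entry and was not searched. For Jag2, Dtx1 and a start of Rbpj all 300 bases of the window lay in annotated exons, so no stretch upstream of an exon was read there. Absence of these letters from a window says nothing about binding elsewhere.

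The rest of the pathway was described from 7 lists of 67 other Notch pathway genes, of which 50 were tested. In MYC off against MYC on, 19 were higher and 12 lower by edgeR, 62% of those tested beside 54.9% of all genes, with a median log2 fold change of 0.09 (all tested genes 0.03). In MYC intermediate against MYC on, 16 were higher and 8 lower (48%, beside 34.6% of all genes), and in MYC off against MYC intermediate 7 were higher and 5 lower (24%, beside 24.7% of all genes). The 16 became 9 without the first MYC on library and 10 without the first MYC intermediate library. The 7 became 2 without the second or the third MYC off library and 4 without the first MYC off library or the second or the third MYC intermediate library, and the 5 became 3 without the second MYC off library.

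Among 9 tested genes of receptor cleavage, 5 were higher and 0 lower in MYC off. That was 55.6% called, beside 54.9% of all tested genes (27.5% higher and 27.4% lower). Adam17, a protease that sheds cell surface proteins, averaged 120.8 CPM in MYC on, 173.3 in MYC intermediate and 211.1 in MYC off (log2 fold change of MYC off over MYC on 0.77 ± 0.0581 SE, edgeR adjusted p = 1.19e-08). Adam10, the protease of the first ligand-induced cut, averaged 195.1 CPM in MYC off and 159.6 CPM in MYC on (0.26 ± 0.061 SE). Ncstn, which encodes a γ-secretase subunit, was also higher, with a log2 fold change of 0.33.

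Of 4 tested genes that glycosylate receptors, 2 were lower and 0 higher (50%, all genes 54.9%). Mfng, a Fringe enzyme that extends O-fucose on the receptors and alters which ligands they answer to, averaged 136.9 ± 5.79 CPM in MYC on, 87.8 ± 7.17 in MYC intermediate and 69.88 ± 1.01 in MYC off (SD, n = 3 each). Its log2 fold change of MYC off over MYC on was −1.005 ± 0.0656 SE (edgeR adjusted p = 2.15e-09). Poglut1, which adds O-glucose to the receptors, followed with −0.82 ± 0.092 SE (adjusted p = 1.2e-06). Lfng, the Fringe gene of early thymocytes, had 2 counts in all.

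In the list of ligand and receptor trafficking and turnover, 5 of 12 tested genes were higher and 3 lower (66.7%, all genes 54.9%). Mib1, the ubiquitin ligase that ligands need in the cell that sends the signal, was lower in MYC off (38.37 CPM, against 65.77 CPM in MYC on, log2 fold change −0.81). Cdk8, a kinase that marks the intracellular domain for destruction, was lower too (15.5 CPM in MYC off and 27.8 CPM in MYC on, −0.87). Neurl1b, a ubiquitin ligase of the Neuralized family, was higher (11.58 CPM in MYC off and 4 CPM in MYC on, 1.49), as was the Deltex gene Dtx2 (32.34 CPM in MYC off and 20.85 CPM in MYC on, 0.59).

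The nuclear partners moved in both directions. Of 6 tested coactivator genes, 2 were higher and 2 lower in MYC off (66.7%, all genes 54.9%). The paralogous histone acetyltransferase genes Kat2a and Kat2b went opposite ways: Kat2a averaged 31.53 CPM in MYC off and 157.6 CPM in MYC on (log2 fold change −2.36 ± 0.0678 SE, edgeR adjusted p = 2.22e-13), and Kat2b averaged 18.24 CPM in MYC off and 7.113 CPM in MYC on (1.31 ± 0.163 SE, adjusted p = 3.63e-06). Ep300, the acetyltransferase that Mastermind recruits, was higher (0.52), and Snw1, a splicing and RBPJ-binding factor, was lower (−0.39). Of 10 tested corepressor genes, 4 were higher and 2 lower (60%, all genes 54.9%). Sin3a (0.50), Hdac1 (0.45) and Kdm5a (0.36) were among those higher.

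Of 14 further genes known as Notch targets in T cells or elsewhere, 8 were tested. Of these 8, 3 were higher and 3 lower (75%, all genes 54.9%). Ccnd3, the D-type cyclin of thymocytes, averaged 6041 CPM in MYC off and 1918 CPM in MYC on (log2 fold change 1.62 ± 0.0602 SE, edgeR adjusted p = 3.09e-12). Gata3, a T lineage transcription factor, averaged 240.3 CPM in MYC off and 97.99 CPM in MYC on (1.26 ± 0.0596 SE), and Trib2, a pseudokinase, was higher by 0.50. Cdk6, the kinase partner of D-type cyclins, went the other way, with 10.06 CPM in MYC off and 72.44 CPM in MYC on (−2.89 ± 0.0998 SE, adjusted p = 1.39e-12).

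**Figure D4:**
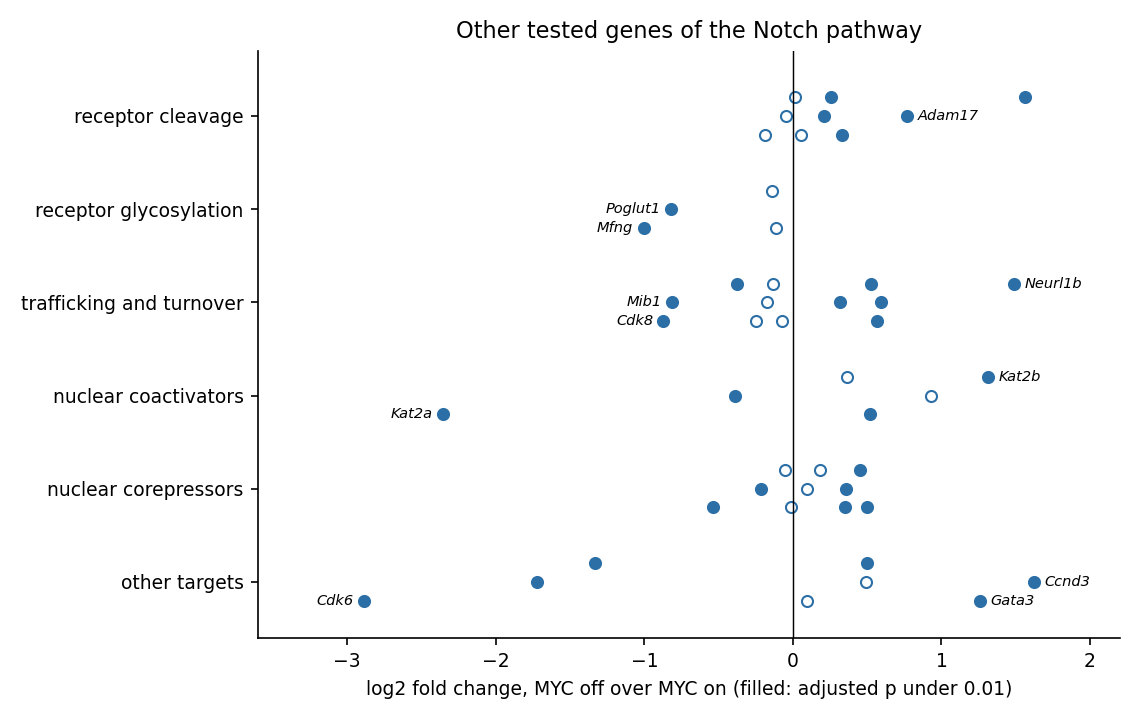
Log2 fold changes of MYC off over MYC on for the tested genes of 6 lists of the Notch pathway, 1 point per gene, filled where the edgeR adjusted p was under 0.01, with the named genes of the widest differences labelled. Called genes of receptor cleavage lay to the right of 0 and those of receptor glycosylation to the left, and the other 4 lists held called genes on both sides. Over all tested genes 27.5% were called higher and 27.4% lower.

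The genes most like each member were sought among 10901 tested genes by Pearson's r of log2 CPM over the 9 libraries. These log2 CPM were TMM scaled, with a prior count of 2. The r values are a description only, since all points share their libraries and groups. Maml1 lay closest to Bptf (r = 0.990), Ckap5 (0.986) and Knl1 (0.986), and 1380 genes had an r over 0.9 with it. Jag2 was closest to Fut10 (0.972), Nat9 (0.970) and Smug1 (0.968), with 75 genes over 0.9. Notch1 was closest to Ints3 (0.950), Smpd5 (0.948) and Slc36a1 (0.942), with 20 over 0.9, and Notch2 to Samd10 (0.949), Pcnx3 (0.938) and Dalrd3 (0.934), with 17. Rbpj had 1 gene over 0.9, Pet100 (0.917). A high r does not mean a difference of like size. Fut10 averaged 25.49 CPM in MYC on and 21.96 in MYC off, where Jag2 averaged 10.61 and 3.211. Ints3 averaged 56.9 CPM in MYC on and 65.84 in MYC off, where Notch1 averaged 4.007 and 7.983.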

How the data were processed

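Polyadenylated RNA was copied with oligo(dT) priming (SMART-Seq v4) and made into Nextera XT libraries, which do not mark strand. Per the labels, the authors trimmed with cutadapt 1.16, and STAR 2.5.4b, featureCounts and the mm10 build also stand in their notes. The annotation release and the strand setting are not given in the sources used here. The authors deposited, for each library, raw counts per gene and TPM made from those counts and the gene length, and the TPM columns matched a recomputation from counts and length. Of 53379 mouse gene IDs, 53274 matched a symbol in GENCODE M21, and coordinates are from that annotation on mm10. The deposited RPK, FPKM and percent columns were not used.

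Counts of all 9 libraries were fitted together with edgeR 4.0.16 in R 4.3.3 (filterByExpr, TMM scaling, glmQLFit and glmQLFTest, group as the sole term), and p-values were adjusted over all 14098 tested genes by Benjamini-Hochberg and called under 0.01. CPM used the library total with no scaling factor, except for the TMM-scaled log2 CPM behind Pearson's r. The SE of an edgeR log2 fold change was derived from the test, as its absolute value divided by the square root of the F statistic. Exact permutation tests used log2(CPM + 0.1), and 3 against 3 libraries cannot go below p = 0.1. On simulated counts for MYC off against MYC on (13873 genes), 92% of 100 genes changed by 1 log2 unit were recovered. Of 100 changed by 0.5, 76% were recovered, and there were 3 false calls. Recovery with as large a part of the genes changed as was called in the libraries themselves (54.9%) was not tested.

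Named were all 9 members and, of each other pathway list, up to 4 called genes with the largest fold change and a mean of at least 5 CPM in a group. A few genes that this rule or the marker lists name are not reported here. Genes of any list that are given by their counts alone, and Notch4, Maml2 and the marker genes given with values, were added after their values were seen. Copies in other genes were searched for the members only. The members and lists were chosen with earlier results of these data known. Replicate numbers of MYC off and MYC on deviated together over 10441 genes (r = 0.353, 0.242 and 0.2 for numbers 1 to 3), although what such a number stands for is not in the labels. For MYC intermediate with MYC on the values were 0.133, −0.154 and −0.144, and for MYC off with MYC intermediate 0.369, 0.042 and 0.086. Pairs with unlike numbers ran from −0.347 to 0.134 for MYC off with MYC on. They reached 0.333 for the second MYC intermediate with the third MYC on library, and 0.245 for the second MYC off with the third MYC intermediate library. Alternatives were DESeq2 1.42.0, other scalings and filters, thinned counts, a replicate block, only the 6 libraries compared, a threshold of 0.05 and each library left out.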

Additional observations from a re-analysis of the deposited data

How the results depend on the processing

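No called member reversed: of 355 alternative fold changes of the 5 tested genes, over 18 settings, 321 kept their direction and side of the threshold, 2 lost the call (Notch1 in MYC off over MYC on, given with its values), 15 gained one, and 17 changed sign, all of them uncalled and near 0. For Maml1 in MYC intermediate over the average of the other groups the value was −0.0022 with a filter of 1 CPM in 3 libraries, −0.011 with DESeq2, −0.012 with RLE size factors, −0.028 by library size alone, −0.0055 with thinned counts and −0.035 with upper quartile scaling. For Rbpj in MYC off over MYC intermediate it was 0.019 by library size and 0.043 with upper quartile scaling. With single libraries left out, those 2 values ran from −0.073 to 0.043 and from −0.099 to 0.061, Notch2 in MYC intermediate over MYC on from −0.18 to 0.094, and, in MYC intermediate over the mean of the other groups, Notch1 from −0.27 to 0.041 and Rbpj from −0.022 to 0.14. The cause was not tested.

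Counts of called members moved by 1 at most. In MYC off over MYC on, members higher numbered 1 with DESeq2, and 1 to 2 with single libraries left out. In MYC intermediate over MYC on, members higher numbered 1 at an adjusted p under 0.05 and 0 to 1 with single libraries left out. In MYC off over MYC intermediate they numbered 1 with the 1 CPM filter, no filter, DESeq2, RLE, library size, upper quartile scaling or the 0.05 threshold, and 0 to 1 with libraries left out. With no filter that member was Notch1 (edgeR adjusted p = 0.00119), and with the other settings just named it was Maml1. In that comparison other pathway genes higher numbered 4 with no filter and 11 with upper quartile scaling (2 to 6 with libraries left out), those lower 9 with no filter (3 to 6), and all genes higher 913 to 1330. Other pathway genes higher in MYC intermediate over MYC on numbered 9 to 16. For MYC intermediate over the mean of the other groups, members lower numbered 1 with DESeq2, RLE or no filter and 0 to 1 with libraries left out. With the replicate block that count was also 1 (Jag2, −1.23, adjusted p = 0.00576). The block left Notch1 in MYC off over MYC on at 1.01 (adjusted p = 0.000983) and changed no other call of a member. The sum of Rbpj and Rbpj-ps3 and the unfiltered values of Nrarp were added after seeing the data. Depth limits Notch3, Hes1, Dtx1 and Nrarp, for which no difference could be detected.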

Other observations

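Several genes of the target list, chosen after their values were seen, lay below the abundance asked of named genes. Il7r, the interleukin 7 receptor gene of early thymocytes, averaged 2.203 CPM in MYC on, 1.48 in MYC intermediate and 0.9096 in MYC off (log2 fold change of MYC off over MYC on −1.33 ± 0.296 SE, edgeR adjusted p = 0.00101). Igf1r, a growth factor receptor gene, averaged 2.316 CPM in MYC on, 1.222 in MYC intermediate and 0.743 in MYC off (−1.72 ± 0.3 SE, edgeR adjusted p = 0.000117). Ptcra, which encodes the invariant chain of the pre-T cell receptor, averaged 0.3012 CPM in MYC on, 0.5576 in MYC intermediate and 0.4198 in MYC off, and MYC off over MYC on was not called (edgeR adjusted p = 0.34). Tcf7, a T lineage factor and Notch target of early thymocytes, was abundant, with 3450 ± 30.5 CPM in MYC on, 4141 ± 141 in MYC intermediate and 3776 ± 77.6 in MYC off (SD, n = 3 each). Tcf7 was called higher in MYC intermediate over MYC on, with a log2 fold change of 0.27 ± 0.0533 SE (edgeR adjusted p = 0.000585), and in MYC intermediate over the average of the other groups (0.23 ± 0.0458 SE, edgeR adjusted p = 0.00964). It was not called in MYC off over MYC on (0.10 ± 0.0533 SE, edgeR adjusted p = 0.125) or in MYC off over MYC intermediate (−0.18 ± 0.0533 SE, edgeR adjusted p = 0.0165).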
